A study of Homo sapiens with 6 samples.

Results

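The expression of telomerase and of the H/ACA core proteins was examined in SK-N-AS cells, an established human neuroblastoma cell line, with and without induction of MYCN. The 8 genes were TERT, TERC, DKC1, NOP10, NHP2, GAR1, WRAP53 and TEP1, taken by symbol from the 60651 genes of the deposited counts. All 8 passed the filter on low counts, among 29086 genes that did. The cells were stably transfected clones that carry the tetracycline repressor and a tetracycline-inducible MYCN gene, and both groups were grown under G418 and blasticidin. The control group received ethanol (ETOH, 3 libraries) and the MYCN-induced group received tetracycline (Tet, 3 libraries), each for 120 h, which the labels also give as 5 days. Every induced library had tetracycline and no control had it, so effects of the drug and of MYCN cannot be told apart here. A clonal line with an introduced MYCN gene is a limited model of tumours in which MYCN itself is amplified. The study's text describes the 3 replicates as independent experiments, the labels do not say whether they were of 1 clone, and the p-values measure the spread between these libraries.

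Telomerase lengthens chromosome ends by copying a short template, carried in its own RNA, into telomeric repeats. TERT is the reverse transcriptase and TERC is the RNA. The 3′ part of TERC has the fold of an H/ACA RNA, the class of small RNAs that guide the conversion of uridine to pseudouridine, and it is bound by the proteins that bind those RNAs. These are dyskerin (DKC1), the pseudouridine synthase itself, and its small partners NOP10, NHP2 and GAR1. WRAP53 (TCAB1) binds the Cajal body signal of TERC and brings telomerase to Cajal bodies, and TEP1 was found as a protein bound to telomerase and to vault particles. Most differentiated cells silence TERT, while many high-risk neuroblastomas reactivate telomerase or lengthen telomeres without it. TERT and DKC1 are known as direct targets of MYC proteins.

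The data gave 1 gene of the 8 that passed the test, DKC1, which was 1.27-fold higher in MYCN-induced cells (95% interval 1.16 to 1.4, n = 3 per group). It passed in 9 of 16 alternative settings, and not with the replicate block, with library size alone or with any 1 of the 3 controls left out. In bulk RNA a shift in the mix of cells and a change within each cell cannot be told apart. GAR1 was also above the controls in each induced library, but did not pass the test after adjustment. TERT, TERC and NHP2 spread widely between replicates, and their groups overlapped. NOP10, WRAP53 and TEP1 had log2 fold changes between -0.08 and 0.04, none past the threshold. All tests were edgeR's quasi-likelihood test with Benjamini-Hochberg adjustment over the 29086 genes, at a threshold of 0.05. Levels in single libraries are given as CPM, the counts scaled to a common library size, after TMM normalization, a method that sets the bulk of genes level across libraries. For comparison, 1.02% of all tested genes were called higher and 2.38% lower after induction.

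Sequence elements that bear on these genes are shown first. TERC holds the template that TERT copies, and in the 2 TERC stretches the capitals mark the template in the first (bases 46 to 56 of the RNA) and, in the second, the Cajal body box to which WRAP53 binds (bases 411 to 414) and the ACA box that gives the class its name (bases 446 to 448). Positions were counted from the first base of the 451-base RefSeq transcript, and the letters were read from the GENCODE 44 transcript, which lies in GRCh38 at chr3:169764941-169765060 and chr3:169764610-169764679 on the minus strand.
TERC template region: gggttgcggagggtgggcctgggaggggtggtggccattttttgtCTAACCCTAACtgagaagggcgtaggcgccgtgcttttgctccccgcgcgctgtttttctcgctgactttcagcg
TERC 3′ end: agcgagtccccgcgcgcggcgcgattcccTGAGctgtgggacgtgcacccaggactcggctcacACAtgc

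MYC proteins bind, with their partner MAX, to the E-box CACGTG. RefSeq promoter windows (GRCh38.p14, 250 bases before to 50 bases after a start) were found for 7 of the 8 genes, in 10 windows, with no entry for TERC. The motif reads the same on both strands. It was found in 3 of these 10 windows, of TERT, NOP10 and GAR1, against 7.26% of all 35116 windows. Positions are counted with the start at 1 and the base before it at -1. The TERT window held a single E-box at -163, in a stretch at chr5:1295199-1295258 on the minus strand. The NOP10 window held 2, at -170 and -11, in stretches at chr15:34343274-34343333 and chr15:34343137-34343174 on the minus strand. Capitals mark the E-boxes.
TERT promoter, -163: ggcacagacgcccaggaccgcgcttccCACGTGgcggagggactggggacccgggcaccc
NOP10 promoter, -170: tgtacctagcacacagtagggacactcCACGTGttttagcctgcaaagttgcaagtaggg
NOP10 promoter, -11: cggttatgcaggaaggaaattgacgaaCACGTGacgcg

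In GAR1 the motif lay at 32, downstream of the second of its RefSeq starts, whose window is chr4:109815512-109815811 on the plus strand. The DKC1 window (chrX:154762614-154762913, plus strand) held no CACGTG, and neither did those of NHP2, WRAP53 and TEP1. The related letters CACGCG, searched on both strands, occurred only in the NHP2 window, at 24, and in 11.4% of all windows. A match is a description of the letters in a window and does not show binding, and the absence of one concerns only these 300 bases.

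As a check of the labels, MYCN itself was at 30.3, 35.5 and 32.4 CPM in the control libraries and at 211, 221 and 199 CPM in the induced libraries, a log2 fold change of 2.68. The libraries held 64500589 to 102249336 counted read pairs. Markers of both neuroblastoma states were present. Of 7 adrenergic markers (PHOX2A, HAND2, GATA3, ISL1, TH, DBH and CHGA), 6 had a mean of at least 1 CPM, with a summed level of 615 to 827 CPM in control and 584 to 756 CPM in induced libraries, and CHGA was called lower (edgeR, log2 fold change -1.21, adjusted p = 0.0492). Of 8 mesenchymal markers, 7 had that mean, at 506 to 530 and 582 to 634 CPM summed, while CD44 was at 0. Without VIM, the most abundant of them, that sum was 145 to 158 and 157 to 161 CPM, and FN1 was the only one called, lower (-0.71, adjusted p = 0.033). Epithelial (1 of 4 genes, 4.27 to 9.62 CPM summed) and blood cell markers (1 of 5, 1.21 to 2.21 CPM, CD3E at 0) were low. MYCN-induced replicate 3 stood apart from all other libraries, with a score of 72.5 on the first principal component, where induced replicates 1 and 2 scored 14.9 and 13.1 and the controls -41.5 to -27.2. In that library the median of 9 genes of the integrated stress response was 3.05 log2 units above the control mean, against 1.09 and 0.44 in induced replicates 1 and 2, and the median of 10 cell cycle genes was -0.56 against 0.14 and 0.21. Results that rest on it are given with and without it. The part of these differences in the results was not tested.

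Levels of different genes were compared per length, as TPM, the share of a library's counts after each gene's count is divided by its exon length in the deposited files. In control libraries the order ran over a wide range, with NOP10 highest at 217 ± 26.8 TPM (SD, n = 3), followed by GAR1 at 81.9 ± 0.0844, DKC1 at 49.9 ± 2.64 and NHP2 at 47.0 ± 15.7 TPM. TERC, with both of its rows summed as explained below, was at 22.7 ± 8.53 TPM. TEP1 followed at 3.67 ± 0.345, WRAP53 at 2.72 ± 0.0668 and TERT at 0.423 ± 0.0847 TPM. The 4 H/ACA core proteins stood at the 95.9 to 99.4 percentile of all tested genes, and TERT at the 15.0 percentile. DKC1 and NHP2 were neighbours whose control levels overlapped, since NHP2 ran from 31.4 to 62.7 TPM and DKC1 from 47.6 to 52.8 TPM. No other neighbours in this order overlapped among the control libraries, although NHP2 at its lowest, 31.4 TPM, lay just above TERC at its highest, 31.1 TPM. The files count all exons of a gene, so a length that includes rare exons lowers the TPM of a gene.

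**Figure D1:**
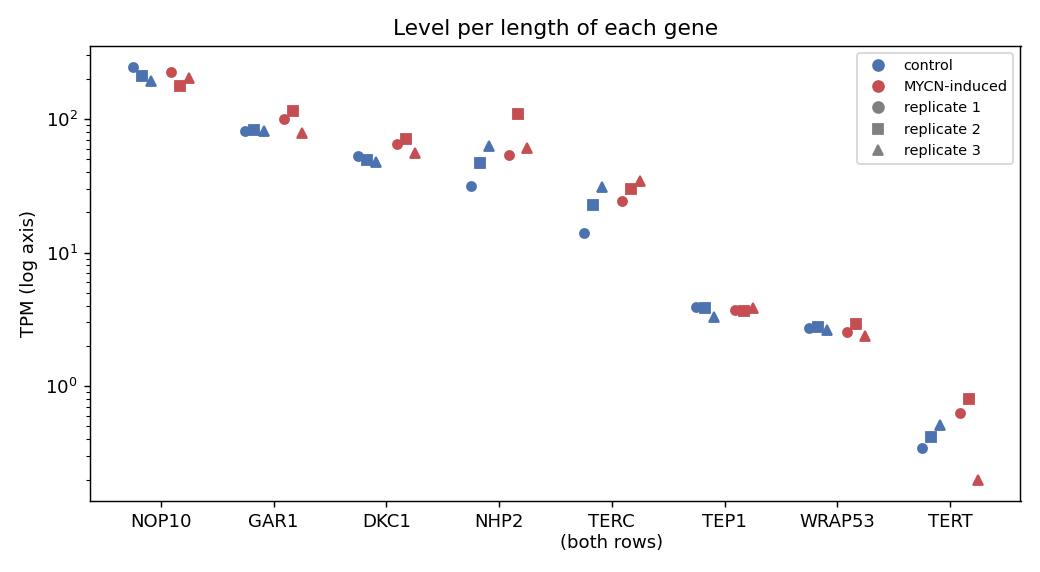
Level per length of the 8 genes in each library, in TPM on a log axis, ordered by the control mean. Blue points are control and red points MYCN-induced libraries, with a symbol for each replicate number. NOP10 is highest near 217 TPM, TERT lowest near 0.423 TPM, and TERT in MYCN-induced replicate 3 lies below all other libraries at 0.199 TPM.

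TERT (chr5:1253147-1295068, minus strand, 18 merged exons) had 70.5 to 241.5 counted pairs per library, the lowest depth of the 8 genes. Its level was 1.17, 1.51 and 1.93 CPM in control replicates 1, 2 and 3, and 2.2, 2.59 and 0.832 CPM in the induced ones. Induced replicates 1 and 2 lay above every control, and replicate 3 lay below every control, so the groups overlapped. The log2 fold change was 0.29 (SE 0.39, 95% interval -0.61 to 1.18, adjusted p = 0.754). Without MYCN-induced replicate 3 it was 0.66, with an adjusted p of 0.122, and without MYCN-induced replicate 2 it turned to -0.04. A change of TERT was therefore not detectable in these counts with 3 libraries per group, and the interval of the fold runs from 0.655 to 2.27. The study had other evidence on TERT. Its methods name TERT, with MYCN and MTHFD2, among the transcripts by which induction of this cell model was verified with qRT-PCR. TERT shares 106 exon bases with a long noncoding RNA on the opposite strand (ENSG00000287486), which had 12.5 to 51 counted pairs.

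By the rule for likeness (root mean square difference over the 6 libraries of log2 CPM centred on the control mean, among 15234 genes with a mean of at least 1 CPM), the genes closest to TERT were DDN at 0.136, H1-5, a linker histone, at 0.186 and IMPA2, an inositol monophosphatase, at 0.201. H1-5 was at 105, 166 and 184 CPM in control and at 196, 219 and 101 CPM in induced libraries. It was picked for its likeness to TERT, so its low value in MYCN-induced replicate 3 follows from the choice. In that library the cell cycle genes had a median of -0.56 and the stress genes of 3.05. The part of these differences in the TERT level was not tested.

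TERC (chr3:169764520-169765060, minus strand, 1 exon) shares 438 of its bases, 81%, with a second annotated gene on the same strand, Telomerase-vert, which stands for the same RNA. Pairs that fell on both were split equally between them by the fractional counting. In control replicates 1, 2 and 3 the TERC row held 231, 336 and 546 pairs and the other row 230, 336 and 546. In the induced replicates the TERC row held 254.5, 412 and 554.5 and the other row 254.5, 408 and 554.5. The deposited TERC row thus carries as many pairs as the other row to within 4 pairs in every library, and a level of TERC read from it alone leaves out the other share. The fold change is little touched, since it was 0.39 with the TERC row and 0.39 with both rows summed.

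The level of the TERC row was 2.21, 3.79 and 5.38 CPM in control libraries and 3.92, 4.42 and 6.54 CPM in induced libraries. The groups overlapped, and the highest control was 2.44 times the lowest. This gave a log2 fold change of 0.39 (SE 0.32, 95% interval -0.36 to 1.13, adjusted p = 0.581). Without MYCN-induced replicate 3 it was 0.14 (adjusted p = 0.835). After the row it is split with, which came closest at 0.005, the genes most like TERC were SCARNA17, a small Cajal body RNA, at 0.06 and RNH1, which encodes ribonuclease inhibitor, at 0.072. SCARNA17 was at 4.59, 8.41 and 10.8 CPM in control and at 7.98, 9.9 and 13.6 CPM in induced libraries. Its order across libraries, lowest in control replicate 1 and highest in MYCN-induced replicate 3, follows from its choice by likeness to TERC.

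Base composition was set beside the spread of the TERC values. TERC is 66.7% G and C (longest GENCODE 44 transcript of each gene), at the 98.2 percentile of tested genes, and TERT is 63.0%, at the 94.5 percentile. Among the 1844 genes of the highest GC decile (above 60.6%), the median level relative to the mean of 6 libraries was -0.35, 0.05 and 0.21 in control replicates 1, 2 and 3 and -0.08, 0.05 and 0.16 in the induced ones, on the log2 scale. Control replicate 1 was thus low in GC-rich genes as a class, and it was the lowest of the 6 libraries in TERC. After a correction for GC content, chosen after seeing the data, the control values of TERC were 3.04, 3.67 and 4.49 CPM and the induced values 4.25, 4.14 and 5.76 CPM. The ratio of the highest to the lowest control fell to 1.48, and the log2 fold change was 0.34 (SE 0.18, adjusted p = 0.347). For TERT the corrected control values were 1.46, 1.47 and 1.7 CPM, and the value of MYCN-induced replicate 3 was 0.757 CPM, still the lowest. Whether base composition caused the spread of TERC was not tested.

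**Figure D2:**
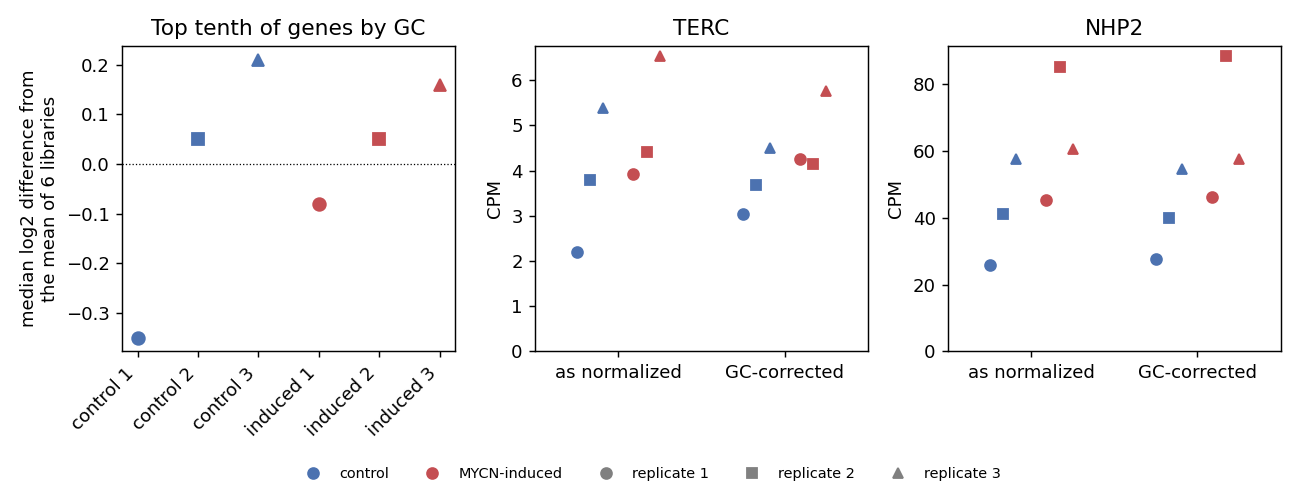
Left, median log2 difference from the mean of 6 libraries over the 1844 genes of highest GC content, for each library. Middle and right, CPM of TERC and NHP2 in each library as normalized and after GC correction. Control replicate 1 is lowest in the left plot at -0.35, and the TERC controls draw together (2.44-fold to 1.48-fold between lowest and highest) while those of NHP2 stay 1.97-fold apart.

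DKC1 (chrX:154762742-154777689, plus strand, 15 merged exons) encodes dyskerin, the catalytic subunit of H/ACA particles and a stabilizer of TERC. It was at 128, 127 and 128 CPM in control libraries and at 161, 162 and 166 CPM in induced libraries. Every induced library lay above every control, and on this TMM-normalized scale the libraries of each group lay close together, with SDs of 0.568 and 2.69 CPM. In TPM the induced libraries were farther apart, at 64.3, 70.7 and 56.0 TPM (SD 7.37). TPM scales each library by its summed counts per length and uses no TMM factor, so the scales differ in more than that factor. The controls were at 52.8, 49.3 and 47.6 TPM (SD 2.64), still without overlap, and MYCN-induced replicate 3 was then the lowest induced library. DKC1 thus had a log2 fold change of 0.35 (SE 0.06, 95% interval 0.22 to 0.48), with an adjusted p of 0.0208 in edgeR and 2.22e-05 in DESeq2. By DESeq2, 3.11% of all genes were called higher and 4.12% lower. With GC correction the fold change was 0.35 (adjusted p = 0.0143), and without MYCN-induced replicate 3 it was 0.34 (adjusted p = 0.00807). The size of the difference ranged from 0.32 to 0.37 over 16 alternative settings, of which 9 kept it past the threshold. It missed the threshold at adjusted p of 0.0541 with library size alone, 0.0513 with upper-quartile scaling, 0.0553 with the replicate number as a block, 0.0876, 0.167 and 0.11 without control replicate 1, 2 or 3, and 0.0686 without MYCN-induced replicate 1. DKC1 shares 246 of its exon bases (5.85%) with SNORA56, SNORA36A and MIR664B, small RNAs that lie within the gene, and each of these had at most 33 counted pairs against 10416 or more for DKC1.

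The genes whose pattern was closest to DKC1 were LSG1, a GTPase of ribosome assembly, at 0.017, ITPRIP at 0.028 and IQCB1 at 0.028. LSG1 was at 89.3, 86.8 and 89.9 CPM in control and at 110, 111 and 113 CPM in induced libraries, with an adjusted p of 0.0265. IQCB1, a protein of the cilium, had an adjusted p of 0.0291 and ITPRIP one of 0.0882. These genes were picked for their likeness to DKC1 in the same 6 libraries. Their differences and adjusted p-values therefore follow largely from the choice and are no separate evidence on DKC1.

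GAR1 (chr4:109815510-109824740, plus strand, 9 merged exons) completes the mature H/ACA particle, in which it replaces the assembly factor NAF1. Its level was 92.9, 98.7 and 103 CPM in control and 116, 123 and 108 CPM in induced libraries. All induced libraries lay above all controls, with MYCN-induced replicate 3 the closest to them. For GAR1 the log2 fold change was 0.24 (SE 0.07, 95% interval 0.07 to 0.41, adjusted p = 0.133). Without MYCN-induced replicate 3 it was 0.30, past the threshold at an adjusted p of 0.0409, in a fit where 3.68% of 28797 genes were called higher. In TPM, which is scaled by summed counts per length without a TMM factor, the groups overlapped. MYCN-induced replicate 3 was then at 78.2 TPM against 81.8, 82.0 and 81.8 TPM in the controls. The length of a gene is the same in every library, so the separation of the GAR1 groups depended on how libraries were scaled.

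NHP2 (chr5:178149463-178153894, minus strand, 4 merged exons), which binds the upper stem of H/ACA RNAs, had the largest fold change of the 8 genes and a wide spread. It was at 26, 41.1 and 57.5 CPM in control and at 45.5, 85.2 and 60.7 CPM in induced libraries. The groups overlapped, and the highest control was 2.21 times the lowest. The log2 fold change was 0.62 (SE 0.31, 95% interval -0.09 to 1.33, adjusted p = 0.329), and between 0.35 and 0.93 with a library left out. GC correction left this spread mostly in place (1.97 times between controls) with a log2 fold change of 0.65 and an adjusted p of 0.242. NHP2 shares 414 exon bases (28.9%) with RMND5B on the opposite strand, which had 3247.5 to 5205.5 pairs. The header of the counts lists no strand option while the methods list one, so how reads of the overlap were assigned is uncertain. The processed copy NHP2P1 had 10 to 24 pairs and NHP2P2 had 0.

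NOP10 (chr15:34341719-34343136, minus strand, 2 merged exons), the smallest protein of the particle, was at 72.1, 65.5 and 62.7 CPM in control and at 68.1, 48.9 and 72.4 CPM in induced libraries. Its groups overlapped, and MYCN-induced replicate 2 was the lowest library. NOP10 had a log2 fold change of -0.08 (SE 0.14, 95% interval -0.41 to 0.25, adjusted p = 0.818). It turned to 0.07 without MYCN-induced replicate 2.

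The core proteins enter the particle in equal numbers, so their transcript ratios were also compared. The ratio of DKC1 to NOP10 in TPM was 0.214, 0.234 and 0.246 in control and 0.284, 0.4 and 0.276 in induced libraries, without overlap. The ratio of DKC1 to GAR1 was 0.645, 0.602 and 0.582 in control against 0.645, 0.614 and 0.716 in induced libraries, with overlap. Ratios of GAR1 and NHP2 to NOP10, and of DKC1 to NHP2, TERT and TERC, overlapped between the groups as well. These ratios are given as descriptions and were not tested.

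WRAP53 (chr17:7686071-7703502, plus strand, 8 merged exons) was at 7.99, 8.7 and 8.63 CPM in control and at 7.73, 8.1 and 8.51 CPM in induced libraries. The groups overlapped, with a log2 fold change of -0.06 (SE 0.1, 95% interval -0.28 to 0.17, adjusted p = 0.814). TEP1 (chr14:20365667-20413501, minus strand, 54 merged exons) was at 25.6, 26.9 and 23.8 CPM in control and at 25.2, 22.7 and 30.7 CPM in induced libraries. Its highest value was that of MYCN-induced replicate 3. The log2 fold change was 0.04 (SE 0.12, 95% interval -0.23 to 0.32, adjusted p = 0.893), and it was -0.08 without that library. The 95% intervals of WRAP53 and TEP1 reach no farther than 0.32 from 0 on the log2 scale.

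**Figure D3:**
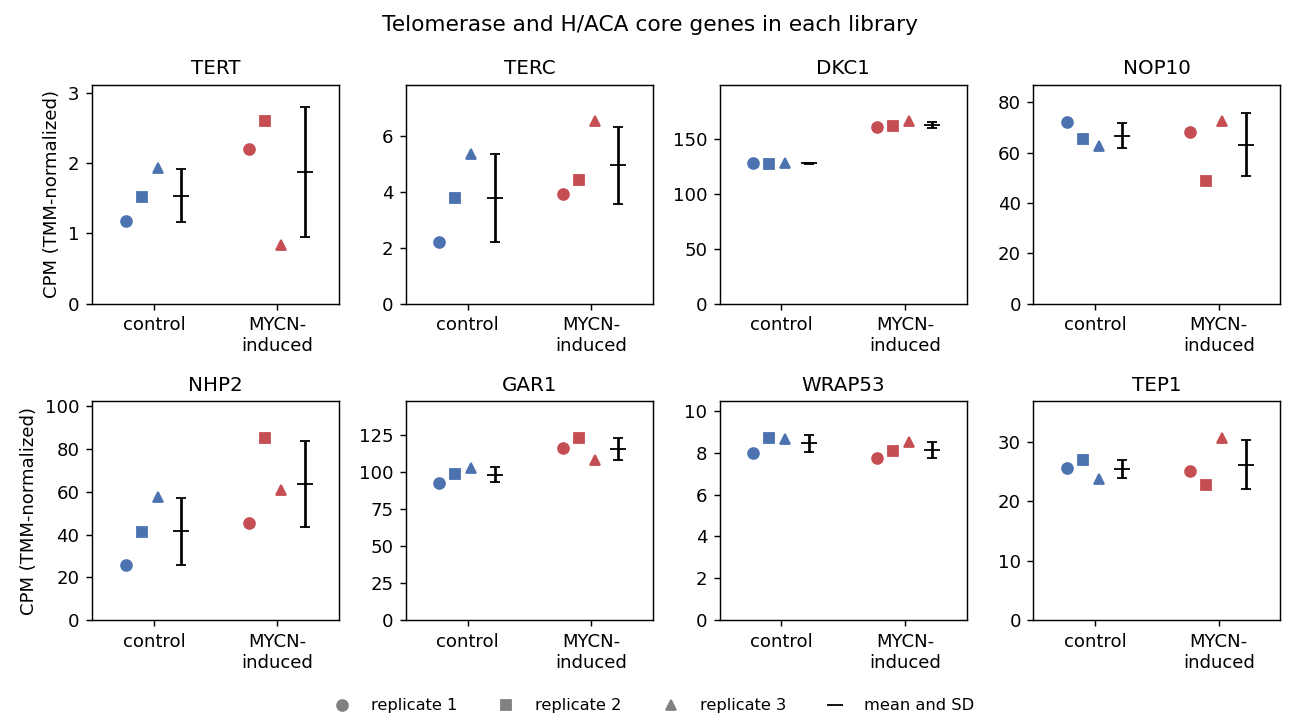
TMM-normalized CPM of the 8 genes in each library, on axes that start at 0, with the mean and SD of 3 libraries beside each group. DKC1 (127 to 128 against 161 to 166 CPM) and GAR1 (92.9 to 103 against 108 to 123 CPM) show no overlap between groups, and TERT, TERC, NOP10, NHP2, WRAP53 and TEP1 do.

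Of the 8 genes, 1 was thus called higher and 0 lower (edgeR), 6 had a fold change above 0 and the median log2 fold change was 0.264. Over all tested genes 49.9% had a fold change above 0. At an unadjusted p under 0.05, 2 of the 8 genes were higher and 0 lower, against 8.13% and 10.6% of all genes, and DESeq2 called 1 higher and 0 lower. Groups did not overlap in 2 of the 8, DKC1 and GAR1, both higher, against 11.5% of all genes with non-overlapping groups that were higher and 14.7% that were lower.

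**Figure D4:**
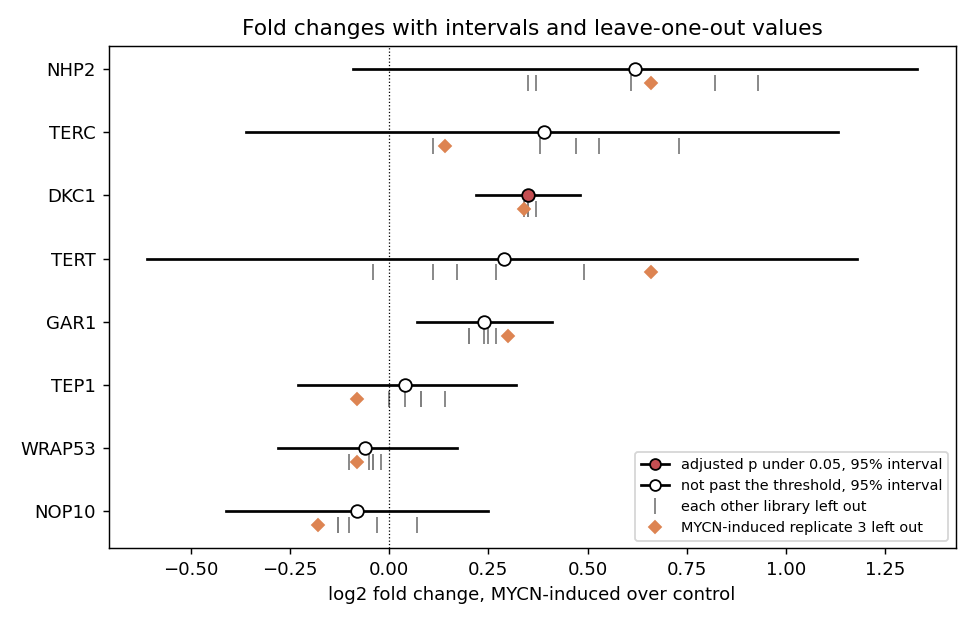
Log2 fold changes of the 8 genes with 95% intervals from edgeR (line and circle, filled where the adjusted p was under 0.05) and the values with a library left out (ticks, and a diamond for MYCN-induced replicate 3). The interval of DKC1 (0.22 to 0.48) is narrow, those of TERT, TERC and NHP2 are wide, and TERT ranges from -0.04 to 0.66 with a library left out.

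The genes that build, process and regulate the same particles were examined as 9 lists with 69 genes, all of which were tested. None of the 69 was called in edgeR, 0 higher and 0 lower. At an unadjusted p under 0.05, 16 were higher and 2 lower, against 8.13% and 10.6% of all genes. A fold change above 0 was seen in 54 of the 69 (78.3%), with a median of 0.1 on the log2 scale, against 49.9% of all genes. DESeq2 called 3 of the 69 higher and 0 lower, namely PUS1, ZCCHC8 and MAX, against 3.11% and 4.12% of all genes, so the share called higher was near that of all genes. Without MYCN-induced replicate 3, edgeR called 10 higher and 1 lower, against 3.68% and 4.44% of all genes. The 10 were NAF1, ZCCHC8, TGS1, NOLC1, CCT8, PINX1, MAX, GABPB1, NOP56 and PUS7, named here after their values were seen, with log2 fold changes from 0.20 for NOP56 to 0.52 for PINX1.

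Among the H/ACA assembly factors, all 4 genes had fold changes above 0, from 0.16 to 0.26, with none called. NAF1, which holds the place of GAR1 in the immature particle, was at 34.6, 35.1 and 37 CPM in control and at 42, 43.9 and 38.1 CPM in induced libraries, without overlap (log2 fold change 0.22, adjusted p = 0.193). RUVBL2, a chaperone ATPase of particle assembly, differed by 0.26 log2 units (adjusted p = 0.404), and its control replicate 1, at 84.8 CPM, was lower than the other controls at 124 and 128 CPM.

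In the maturation and decay of telomerase RNA, 11 of 12 genes were above 0, with a median of 0.098 and none called. ZCCHC8, a subunit of the nuclear exosome targeting complex that trims TERC precursors, was at 53.4, 49.7 and 52.1 CPM in control and at 62.8, 60.9 and 80.3 CPM in induced libraries (0.40, adjusted p = 0.104 in edgeR and 0.0407 in DESeq2). Without MYCN-induced replicate 3, its highest library, the difference was 0.27 (adjusted p = 0.0282). RBM7, a partner of ZCCHC8, differed by 0.27 log2 units (adjusted p = 0.158). ZCCHC8 and RBM7 showed no overlap between groups.

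Of the Cajal body and chaperonin genes, all 10 were above 0, with a median of 0.107, none called, and no overlap in 5, all higher, against 11.5% of all genes. The chaperonin TRiC folds WRAP53, and its subunits CCT4 (0.29, adjusted p = 0.171) and CCT6A (0.26, adjusted p = 0.172) had the largest differences. CCT6A was at 394, 393 and 420 CPM in control and at 455, 549 and 448 CPM in induced libraries.

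Among telomerase chaperones and regulators, 6 of 10 were above 0 and none was called. PINX1, a nucleolar inhibitor of telomerase, was at 6.33, 6.78 and 6.59 CPM in control and at 8.64, 10 and 7.38 CPM in induced libraries (0.40, adjusted p = 0.145), and without MYCN-induced replicate 3 it passed the threshold (0.52, adjusted p = 0.0274). The helicase PIF1, which removes telomerase from DNA ends, differed by -0.20 log2 units (adjusted p = 0.748) and was lowest in MYCN-induced replicate 3, at 4.68 CPM. Without that library it differed by 0.08 (adjusted p = 0.727).

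The shelterin complex, which covers telomeric repeats, had 3 of 6 genes above 0 and none called. TINF2, the bridge between its DNA-binding subunits, was at 5.39, 5.71 and 5.25 CPM in control and at 3.65, 4.26 and 4.76 CPM in induced libraries, without overlap (-0.37, adjusted p = 0.172). TERF2IP differed by 0.23 log2 units (adjusted p = 0.302), and by 0.10 without MYCN-induced replicate 3, its highest library (adjusted p = 0.237). In the CST complex, which ends telomerase action and recruits DNA polymerase, 2 of 3 were above 0, and CTC1 differed by -0.22 log2 units (adjusted p = 0.263) and TEN1 of 0.17 (adjusted p = 0.782). TINF2 and CTC1 were the 2 genes of the 69 that were lower at an unadjusted p under 0.05.

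Of 8 known regulators of TERT transcription, 5 were above 0 and none was called. MAX, the partner of MYCN at the E-box, was at 52.5, 53.3 and 54.8 CPM in control and at 62.8, 63.1 and 77.8 CPM in induced libraries (0.34, adjusted p = 0.101 in edgeR and 0.0478 in DESeq2). Without MYCN-induced replicate 3 it differed by 0.24 (adjusted p = 0.0371). ETS1 differed by 0.45 log2 units (adjusted p = 0.337), with its highest value, 11.4 CPM, in MYCN-induced replicate 3 and overlap between the groups, and by 0.13 without that library (adjusted p = 0.474). MYC, named here after its values were seen, was at 48.8, 53.4 and 56.2 CPM in control and at 37.6, 37.5 and 66.9 CPM in induced libraries. Its induced replicates 1 and 2 lay below and replicate 3 above all controls, and it was the gene called lower without replicate 3 (-0.48, adjusted p = 0.016).

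Among the other pseudouridine synthases, which act without a guide RNA, 11 of 12 were above 0, with a median of 0.158 and none called. PUS1, which modifies transfer RNAs in nucleus and mitochondria, was at 27, 36 and 38.8 CPM in control and at 47.6, 53.1 and 49.1 CPM in induced libraries (0.56, adjusted p = 0.0685 in edgeR and 0.00932 in DESeq2). PUS7 differed by 0.30 log2 units (adjusted p = 0.114). In the box C/D core, the sister particle that guides ribose methylation, 2 of 4 were above 0, with a median of -0.008. FBL, its methyltransferase, differed by -0.18 log2 units (adjusted p = 0.652) and NOP58 of 0.16 (adjusted p = 0.253). The counterpart of dyskerin in the box C/D particle, FBL, thus did not pass the test, but the difference between DKC1 and FBL was not tested.

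**Figure D5:**
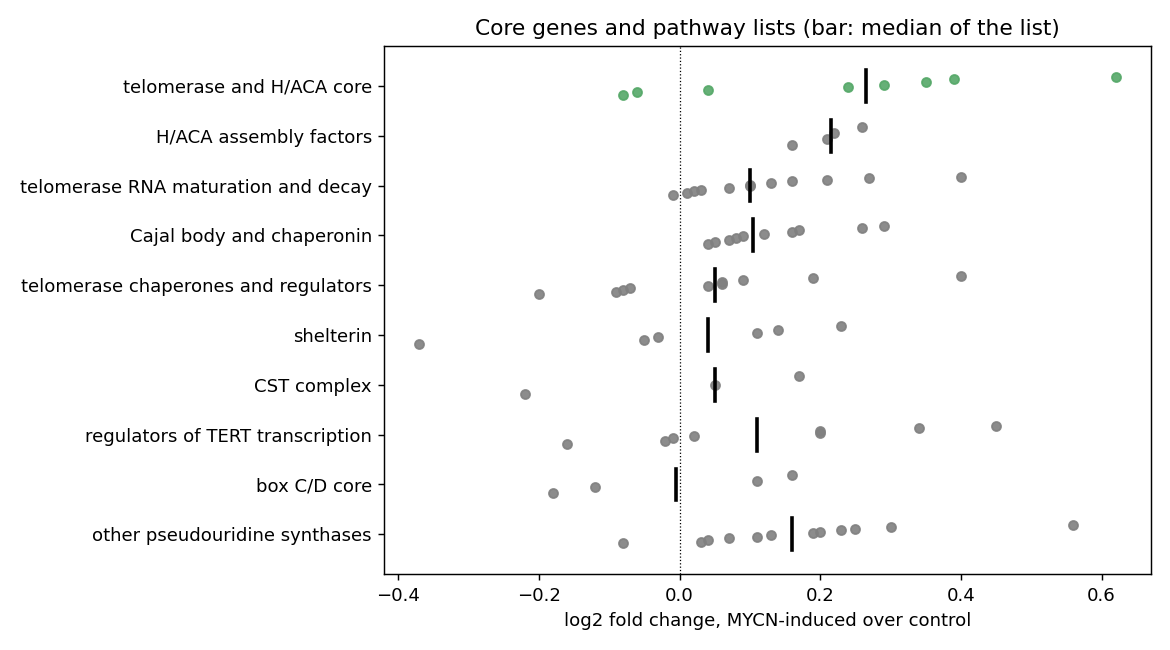
Log2 fold change of each gene in the group of 8 (green) and in the 9 pathway lists (grey), with a bar at the median of each list. The median is 0.264 for the 8 genes and lies between -0.008 and 0.215 for the lists, and of all the genes plotted DKC1 alone was called in edgeR.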

How the data were processed

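Ribosomal RNA was depleted and stranded total RNA libraries were sequenced from 3 control and 3 MYCN-induced samples. The authors deposited estimated counts, that is unnormalized read pairs per gene over GRCh38 exons. STAR 2.7.1a and featureCounts 1.5.1 are given in the submitters' processing notes, while the file header names featureCounts 1.6.4 with fractional counting of pairs that overlap several genes and no strand option. The methods do list a strand option. Gene names came from GENCODE 44 (99.65% of IDs), and the 92 spike-in sequences had 0 counts. Per the file headers the length per gene is that of its merged exons.

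The estimated counts were rounded, and a gene was tested if 3 or more libraries held 10 or more counts of it. The test was the quasi-likelihood test of edgeR 4.0.16 (R 4.3.3), with TMM normalization and no replicate block. The SE is the log2 fold change over the root of F. Total counts were 64500589 to 102249336, and the spread between libraries (biological coefficient of variation 0.153) set the precision. Replicates all differed by more than sampling noise, so each was counted as 1 sample. Deviations of libraries with the same number correlated at 0.21, -0.02 and 0.07, so the numbers were not taken to pair the libraries. The test was checked on simulated data.

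Alternatives were library size only, upper-quartile scaling, DESeq2 1.42.0, dropping the filter, raising it to 100 counts in all libraries, protein-coding genes and the 8 genes only, the replicate block and leaving out each library. Summing TERC with its overlapping gene, unrounded counts and a GC correction (lowess, span 0.3) were added after seeing the data. Named were the 8 genes, MYCN, genes sharing exon bases with them, of each pathway list every gene past the threshold and the 2 largest changes, and the 3 genes most like TERT, DKC1 and TERC. Other named genes are marked as chosen later. The genes and lists were chosen with earlier results of these data known. A marker gene and a shared-exon value are not reported here.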

Additional observations from a re-analysis of the deposited data

How the results depend on the processing

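Limits. There were 3 libraries per group, of which MYCN-induced replicate 3 stood apart. TERT has no value at a minimum of 100 counts in every library, since its lowest count was 70.5. The log2 fold change of MYCN was 2.63 to 2.74 and past the threshold under all 16 alternatives. Those of TERC, NHP2 and WRAP53 kept direction and side of the threshold under all 16.

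DKC1 kept its direction under all 16 alternatives and missed the threshold with library size only (0.32), upper-quartile scaling (0.32) and the replicate block (0.35), so that 0 of the 8 genes were called higher there. With a library left out DKC1 was 0.34 to 0.37 (adjusted p in edgeR 0.00807 to 0.167), GAR1 0.20 to 0.30, TERT -0.04 to 0.66, NOP10 -0.18 to 0.07 and TEP1 -0.08 to 0.14. Of these, TERT and NOP10 turned sign without MYCN-induced replicate 2, and TEP1 without MYCN-induced replicate 3 (-0.08) or control replicate 3 (-0.00). The 8 genes called higher were then 0 to 2, with 2 only without MYCN-induced replicate 3. The cause was not tested.

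Over all genes, calls higher and lower were 904 and 1199 with DESeq2, 482 and 934 with GC correction and 265 and 575 with the replicate block. Calls higher were 470 without a count filter, and calls lower were 404 with 100 counts in every library and 430 among protein-coding genes. With a library left out they were 18 to 1060 higher and 72 to 1279 lower. Of the 69 pathway genes, 1 was called higher with upper-quartile scaling, against 267 of all 29086 genes tested. With the replicate block it was 1 of the 69, against 265 of the same 29086. Without a filter 1 of the 69 was called higher, against 470 of a larger number of genes. DESeq2 called 3 of the 69 higher, against 904 (3.11%). The fit with GC correction called 2, against 482 among the 99.71% of tested genes with a known GC content. With a library left out, 0 to 10 of the 69 were called higher and 0 to 1 lower. The 10 and the 1 came without MYCN-induced replicate 3, where 3.68% of 28797 genes were called higher and 4.44% lower. Whether the 69 held a larger share of calls than all genes was not tested. The replicate block changed no other call among the 8 genes.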
